A study of Mus musculus with 12 samples.

Results

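The metallothionein genes Mt1 and Mt2 and 6 genes of the glucocorticoid pathway (Nr3c1, Hsd11b1, Fkbp5, Tsc22d3, Sgk1 and Tat) were followed in mouse liver under 4 diets. They were found by the RefSeq accessions of the array's probes, which named 20886 genes in all, and 9 of the 39429 probes belonged to the 8 genes. Liver RNA of 12 female C57BL/6N mice, received at 6 weeks of age and given 2 weeks to acclimatise, was taken after 6 months on a diet, with 3 mice for each diet. Ctrl mice ate a normal formula diet with corn starch and sucrose as carbohydrate. RS mice ate the same diet with added resveratrol, a plant stilbene. In DJ mice the starch and sucrose were replaced by Dongjin rice, and in DJ526 mice by DJ526, a resveratrol-enriched transgenic line of that rice which carries a stilbene synthase gene of peanut. Rice and DJ526 grain differ from the control diet in more than resveratrol, DJ526 is 1 transgenic line, and the time of day at which livers were taken is not given in the sources used here.

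Metallothioneins are small cysteine-rich proteins that bind zinc and copper, and in liver Mt1 and Mt2 are induced by metals through the transcription factor MTF1 and by glucocorticoids and inflammation. Glucocorticoids act through the glucocorticoid receptor, the product of Nr3c1, which moves to the nucleus when it binds hormone and activates genes such as Fkbp5, Tsc22d3, Sgk1 and Tat. The enzyme encoded by Hsd11b1 regenerates active glucocorticoid from its inactive form inside hepatocytes, and hormone levels in blood rise and fall over the day and with stress.

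Mt1 and Mt2 lie next to each other on chromosome 8, and their annotated starts are 6471 bases apart. The windows from 250 bases before to 50 bases after the annotated gene start (RefSeq, GRCm38.p6) are shown for both, since these were the members whose levels moved together from mouse to mouse. The window of Mt1 is chr8:94178839-94179138 and that of Mt2 is chr8:94172368-94172667, both on the plus strand and printed 5′ to 3′. Capitals mark the core of the metal response element, searched as TGCACNC or TGCGCNC on both strands.
Mt1: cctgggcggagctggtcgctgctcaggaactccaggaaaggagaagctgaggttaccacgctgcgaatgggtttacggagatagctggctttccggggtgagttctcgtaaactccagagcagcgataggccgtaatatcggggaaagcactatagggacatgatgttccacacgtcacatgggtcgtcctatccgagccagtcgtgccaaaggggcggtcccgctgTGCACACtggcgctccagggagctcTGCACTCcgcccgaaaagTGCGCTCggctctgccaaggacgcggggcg
Mt2: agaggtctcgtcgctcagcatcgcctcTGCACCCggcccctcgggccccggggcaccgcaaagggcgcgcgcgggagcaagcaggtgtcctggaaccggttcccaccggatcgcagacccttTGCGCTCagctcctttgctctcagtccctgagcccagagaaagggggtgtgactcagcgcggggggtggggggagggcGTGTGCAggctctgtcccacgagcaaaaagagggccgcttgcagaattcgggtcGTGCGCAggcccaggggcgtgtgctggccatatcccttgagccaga
The Mt1 window held 3 matches, all on the gene's strand, and the Mt2 window held 4, of which 2 were on the gene's strand. Relative to the annotated start they lay at -23, 2 and 20 for Mt1 and at -223, -128, -50 and 4 for Mt2. Among 32851 windows of the same length, 25.7% held at least 1 match, 1.97% held 3 or more and 0.517% held 4 or more. Windows were given for 7 of the 8 genes, 14 in all, and Nr3c1 was not among them. Of the other 5 genes, Hsd11b1 and Sgk1 each held 1 match in 1 window. The full palindrome of the glucocorticoid response element, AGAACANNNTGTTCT, was found in 3 of all windows (0.00913%), and 1 of them was a window of Sgk1. The single site AGAACA on either strand, which the palindrome also contains, was found in 19.0% of all windows and, among the members, in windows of Sgk1 and Tsc22d3. Sgk1 and Tsc22d3 had several windows each and so more room for a match, whereas the shares are per window. The TATA box, searched as TATAAA on the gene's strand, was found in 8.32% of all windows and, among the members, only in windows of Sgk1. It was thus in neither the Mt1 nor the Mt2 window. These matches describe letters in short windows around annotated starts and are not measured binding, and sites outside the windows were not searched.

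All 9 member probes were well above background on all 12 arrays, and no spot was saturated. Levels are given as log2 of the processed signal relative to the array's 75th percentile, so that 1 unit is a doubling and levels of different probes are not set against each other. The 75th percentile lay between 953 and 1167 signal units, and 73.0% to 80.8% of spots were well above background. The arrays lay on 3 slides. Slide 1 held the Ctrl arrays and DJ mouse 1, slide 2 held DJ mice 2 and 3 with RS mice 1 and 2, and slide 3 held RS mouse 3 with the DJ526 arrays. No slide therefore held both RS and Ctrl, both DJ526 and Ctrl, or both DJ526 and DJ, and in these comparisons diet and slide differ together. Of the cell type markers, 11 of 11 hepatocyte genes were well above background on all arrays, with a mean log2 level per liver of 7.84 to 8.05. The 5 Kupffer cell and 6 sinusoidal endothelium markers were also well above background on all arrays, so detection does not show the shares of these cells. The mean over 5 Kupffer cell markers ranged from 2.17 to 3.19 and that over 6 lymphocyte markers from -3.41 to -0.90, and no list of cell type markers had a gene that passed the test between diets. The part of these cells in the results was not tested, and in bulk liver fewer cells of a type and less RNA per cell cannot be told apart.

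Mt1 differed widely between mice that ate the same diet. Its log2 level was 6.67, 6.49 and 6.92 in the Ctrl mice, 5.81, 7.81 and 6.87 in the RS mice, 7.27, 5.87 and 7.18 in the DJ mice, and 7.27, 6.40 and 7.10 in the DJ526 mice. RS mouse 1 was the lowest and RS mouse 2 the highest of all 12, 4.00-fold apart, and the Ctrl range lay inside that of every other diet. The diet means ± SD (n = 3) were 6.69 ± 0.221 in Ctrl, 6.77 ± 0.785 in DJ, 6.83 ± 1.00 in RS and 6.92 ± 0.460 in DJ526. Neighbours in this order, and its ends, differed by less than their spread.

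Mt2 had the same order of mice at both ends and a wider range. Its log2 level was 4.52, 4.56 and 5.46 in the Ctrl mice, 3.62, 6.63 and 5.26 in the RS mice, 6.17, 3.74 and 5.55 in the DJ mice, and 6.07, 4.71 and 5.91 in the DJ526 mice. RS mice 1 and 2 were again the lowest and the highest, 8.08-fold apart, and the ranges of all diets overlapped. The means ± SD (n = 3) were 5.56 ± 0.739 in DJ526, 5.17 ± 1.51 in RS, 5.15 ± 1.26 in DJ and 4.85 ± 0.531 in Ctrl, and no neighbouring means differed beyond their spread. RS mice 1 and 2 shared a diet and a slide, their arrays had 75th percentiles of 1086 and 1070, and 77.3% and 76.0% of their spots were well above background.

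**Figure D1:**
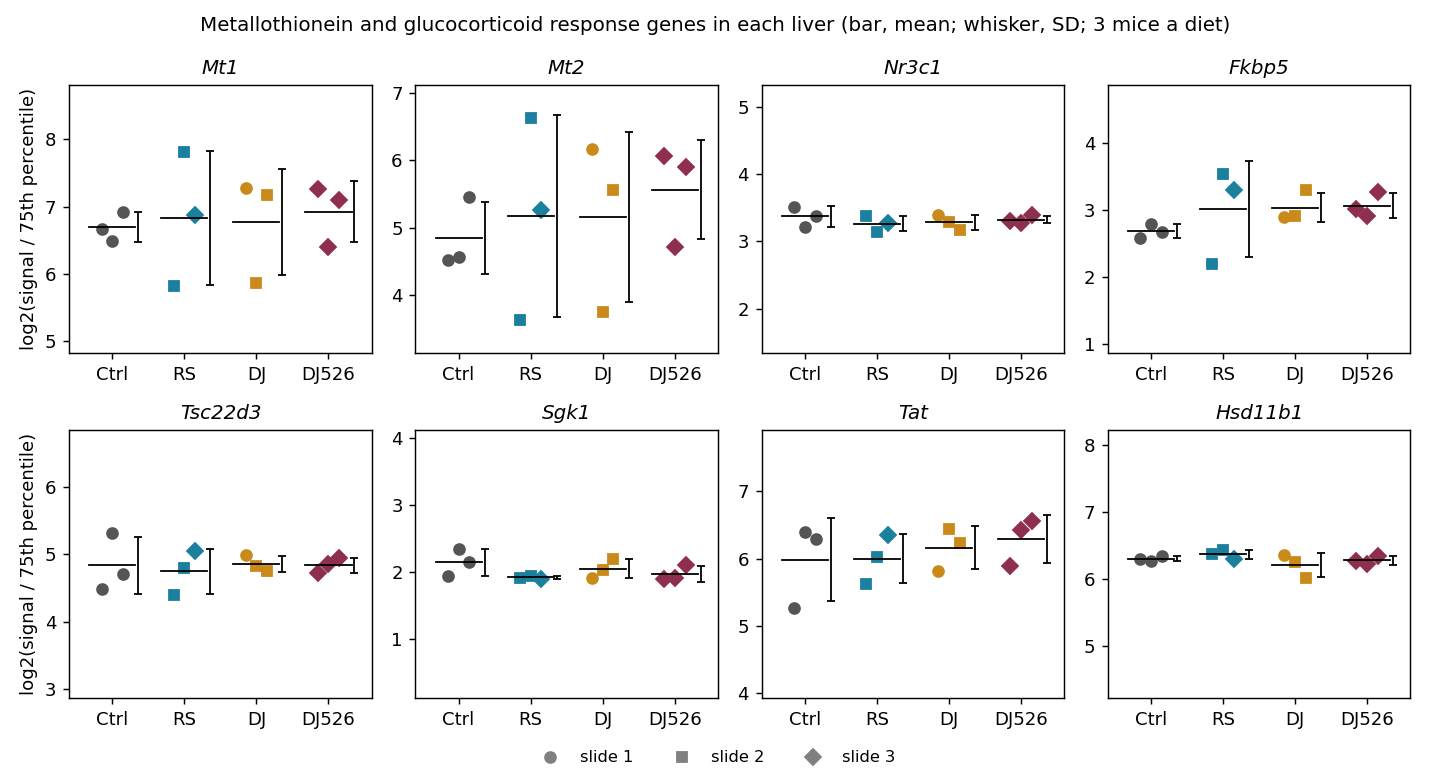
Log2 signal relative to the array's 75th percentile (vertical axes, 4 units in each panel) of the 8 genes in each of 12 livers, by diet (horizontal axes). Symbols give the slide, bars the mean and whiskers the SD of 3 mice. Mt1 and Mt2 spread widely within RS, DJ and DJ526, whereas Nr3c1 (brighter probe), Sgk1 and Hsd11b1 lay close together in every diet.

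The glucocorticoid receptor gene and the hormone-activating enzyme were the steadiest members. The brighter of the Nr3c1 probes read 3.52, 3.21 and 3.38 in the Ctrl mice, 3.38, 3.15 and 3.27 in the RS mice, 3.39, 3.29 and 3.17 in the DJ mice, and 3.31, 3.28 and 3.39 in the DJ526 mice, 1.29-fold from lowest to highest. The diet means ran from 3.37 in Ctrl over 3.32 in DJ526 and 3.28 in DJ to 3.27 in RS, and all diets overlapped. The dimmer Nr3c1 probe spanned 1.62-fold and also gave no difference that passed the test, but its order differed, with the highest mean in DJ526 (-0.62) and the lowest in RS (-0.84). Hsd11b1 read 6.30, 6.28 and 6.35 in the Ctrl mice, 6.38, 6.43 and 6.30 in the RS mice, 6.37, 6.25 and 6.01 in the DJ mice, and 6.27, 6.22 and 6.35 in the DJ526 mice. Its means ± SD (n = 3) were 6.37 ± 0.067 in RS, 6.31 ± 0.035 in Ctrl, 6.28 ± 0.066 in DJ526 and 6.21 ± 0.181 in DJ. The Hsd11b1 probe was spotted 10 times on each array, of which 8 to 10 spots were used, and the SD between these spots on 1 array was 0.0303 to 0.0726.

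Fkbp5 encodes an immunophilin that binds the receptor complex and lowers its affinity for hormone, and is itself a receptor target. It read 2.58, 2.78 and 2.67 in the Ctrl mice, 2.19, 3.53 and 3.30 in the RS mice, 2.90, 2.91 and 3.29 in the DJ mice, and 3.01, 2.90 and 3.27 in the DJ526 mice. Every DJ and DJ526 mouse was above every Ctrl mouse, while the RS mice held both the lowest and the highest value of the series. The means ± SD (n = 3) were 2.68 ± 0.102 (Ctrl), 3.00 ± 0.714 (RS), 3.03 ± 0.221 for the DJ mice and 3.06 ± 0.188 for the DJ526 mice, and the last 3 differed by less than their spread.

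Tsc22d3 encodes GILZ, a leucine zipper protein that carries part of the anti-inflammatory action of glucocorticoids. It read 4.49, 5.32 and 4.71 in the Ctrl mice, 4.39, 4.80 and 5.05 in the RS mice, 4.99, 4.83 and 4.76 in the DJ mice, and 4.72, 4.85 and 4.95 in the DJ526 mice, and its means of 4.75 (RS) to 4.86 (DJ) were closer together than the mice within Ctrl. Tat encodes tyrosine aminotransferase, a classical glucocorticoid-induced enzyme of hepatocytes. It read 5.27, 6.40 and 6.29 in the Ctrl mice, 5.62, 6.03 and 6.35 in the RS mice, 5.81, 6.45 and 6.23 in the DJ mice, and 5.88, 6.42 and 6.56 in the DJ526 mice. Ctrl mouse 1 was the lowest, 2.45-fold below the highest, DJ526 mouse 3. The Tat means ± SD (n = 3) rose in the order Ctrl (5.98 ± 0.622), RS (6.00 ± 0.365), DJ (6.16 ± 0.321) and DJ526 (6.29 ± 0.358), with all ranges overlapping. Sgk1, a kinase that regulates ion channels and transporters, read 1.94, 2.34 and 2.15 in the Ctrl mice, 1.91, 1.95 and 1.91 in the RS mice, 1.92, 2.04 and 2.20 in the DJ mice, and 1.90, 1.91 and 2.11 in the DJ526 mice, with the highest mean in Ctrl (2.15) and the lowest in RS (1.92).

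The spread between mice of 1 diet, pooled over the 4 diets, was 1.08 log2 units for Mt2 and 0.685 for Mt1. The median over 27285 probes well above background on all arrays was 0.191, and the spread was wider for Mt2 than for 99.3% and for Mt1 than for 96.9% of these probes. Tat (0.434, above 89.4% of probes), Fkbp5 (0.389, 86.2%) and Tsc22d3 (0.283, 72.5%) also spread more than the median probe. Sgk1 (0.137, 30.1%), Nr3c1 (0.114, 20.3%) and Hsd11b1 (0.103, 15.9%) spread less, although the dimmer Nr3c1 probe was above the median probe (0.235, 62.4%).

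The first question of the design was whether resveratrol, rice or resveratrol-enriched rice changed these genes against the control diet. No member probe passed the threshold in any comparison (limma, Benjamini-Hochberg adjusted p under 0.05 over all probes), and 0 of 9 had an unadjusted p under 0.05. Over all probes, limma called 0% in RS against Ctrl, 0% in DJ against Ctrl and 0.00507% in DJ526 against Ctrl. It called 0.0101% in DJ526 against DJ and 0.00761% in DJ526 against RS. For rice against starch and sucrose and for the contrast of resveratrol's effect on rice with its effect on starch it called 0% each, and for any difference among the 4 diets 0.00507%. At an unadjusted p under 0.05 there were 2366 probes in RS against Ctrl, 2057 in DJ against Ctrl, 4257 in DJ526 against Ctrl, 3867 in DJ526 against DJ and 2169 in DJ526 against RS. With so few calls over the whole array, the members' lack of calls does not set them apart.

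The intervals show which differences 3 mice a diet could not detect. The largest estimate was that of Mt2 in DJ526 against Ctrl, a log2 difference of 0.72 (SE 0.757, 95% confidence interval -0.95 to 2.38, limma adjusted p = 0.767), which allowed anything from a 0.518-fold to a 5.22-fold level. Mt1 in the same comparison differed by 0.23 (interval -0.82 to 1.29, adjusted p = 0.894). With slide as a fixed block the Mt2 difference in DJ526 against Ctrl was 2.11 (SE 1.80, adjusted p = 0.660), and it rests on a chain through DJ and RS since these diets share no slide. Within slide 1, DJ mouse 1 was 1.32 above the mean of the Ctrl mice for Mt2. Within slide 2, the DJ mean was 0.48 below the RS mean on the log2 scale (difference -0.48), and within slide 3 the DJ526 mean was 0.31 above RS mouse 3.

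The intervals were narrow for the steady members. For the brighter Nr3c1 probe the 95% intervals of the fold lay between 0.806 and 1.20 in the 5 comparisons of diets in pairs, and for Hsd11b1 between 0.819 and 1.20. Those of the dimmer Nr3c1 probe were wider, between 0.736 and 1.52. For Sgk1 in RS against Ctrl the log2 difference was -0.22 (interval -0.46 to 0.01, adjusted p = 0.848), the lowest unadjusted p of any member gene (0.0614). Tsc22d3 in DJ526 against Ctrl differed by 0.00 (interval -0.45 to 0.45), and Tat by 0.30 (interval -0.37 to 0.98, adjusted p = 0.754).

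**Figure D2:**
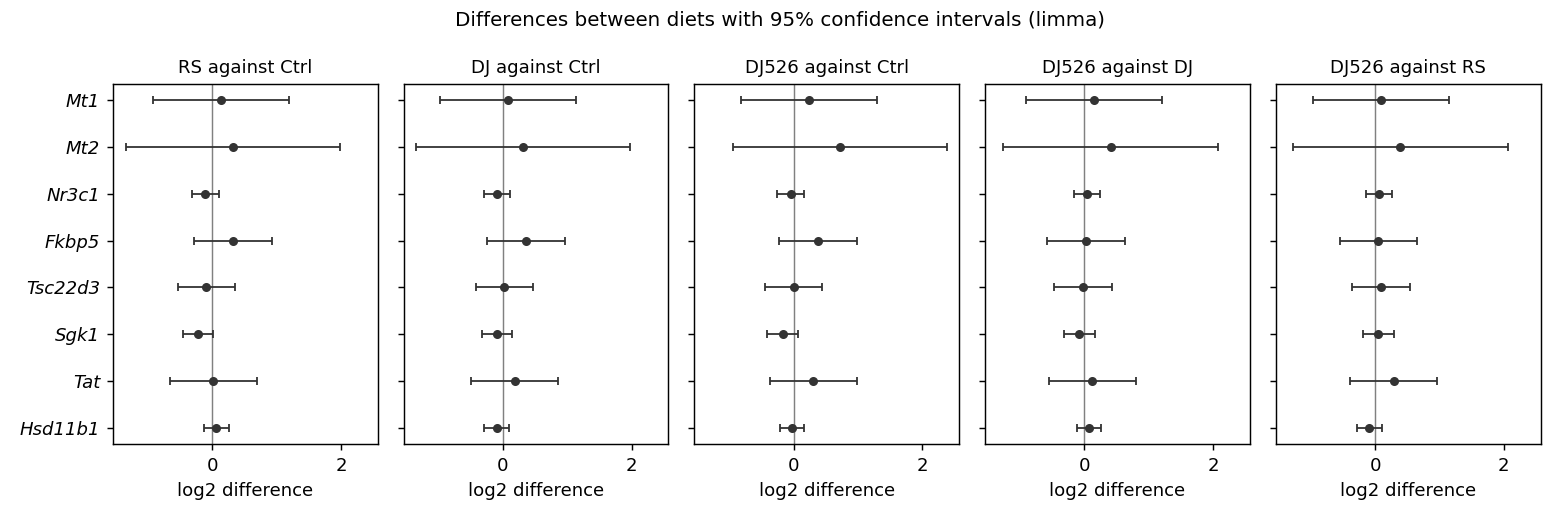
Log2 difference between diet means (horizontal axes) with limma's 95% confidence interval for each of the 8 genes, 1 panel for each comparison, 3 mice a diet. Every interval includes 0, and those of Mt2 are the widest.

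Fkbp5 was the member gene whose groups separated. It was higher in DJ than in Ctrl by 0.35 (interval -0.25 to 0.96, adjusted p = 1.00) and in DJ526 than in Ctrl by 0.38 (interval -0.23 to 0.99, adjusted p = 0.642), in both cases without overlap between the mice. The exact two-sided permutation test gave p = 0.1 for each, which is the smallest p that 3 mice against 3 can give. Groups did not overlap for 9.34% of probes in DJ against Ctrl and 20.6% in DJ526 against Ctrl, so that 1 of 9 member probes in each is near or below the background. The share was 10.2% in RS against Ctrl and 18.4% in DJ526 against DJ, with 0 member probes each. It was 11.1% in DJ526 against RS, with 1 member probe, the dimmer Nr3c1 probe (log2 difference 0.21, adjusted p = 0.986), whose brighter partner overlapped. The comparisons against Ctrl share the Ctrl mice. RS against Ctrl gave 0.33 for Fkbp5, and 0.73 without RS mouse 1 (unadjusted p = 0.000505, adjusted p = 0.257), so that this value rests on that mouse. With slide as a fixed block the Fkbp5 difference turned to -0.26 in DJ526 against Ctrl (adjusted p = 0.893) and to -0.02 in RS against Ctrl (adjusted p = 0.994). Within slide 1, DJ mouse 1 was 0.22 above the Ctrl mean for Fkbp5.

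Mt1 and Mt2 followed each other across the 12 mice, and this held inside the diets. Pearson's r was 0.977 (permutation p = 1e-05, the smallest that 100000 permutations can give, 0.00028 after Benjamini-Hochberg over 28 pairs of members) and Spearman's rho 0.965 (permutation p = 2e-05, adjusted 0.00056). Without RS mouse 1 and DJ mouse 2, the farthest from the median of Mt1, r was 0.950. With the diet means subtracted r was 0.985, and with the slide means subtracted it was 0.981. For each log2 unit of Mt1, Mt2 changed by 1.59 units over all mice and by 1.56 within diets. The difference of Mt2 minus Mt1 on the log2 scale accordingly ranged from -2.20 to -1.10. Mt1 and Mt2 are paralogs, and binding of each probe to the other gene's RNA was not tested, since probe sequences were not used here.

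**Figure D3:**
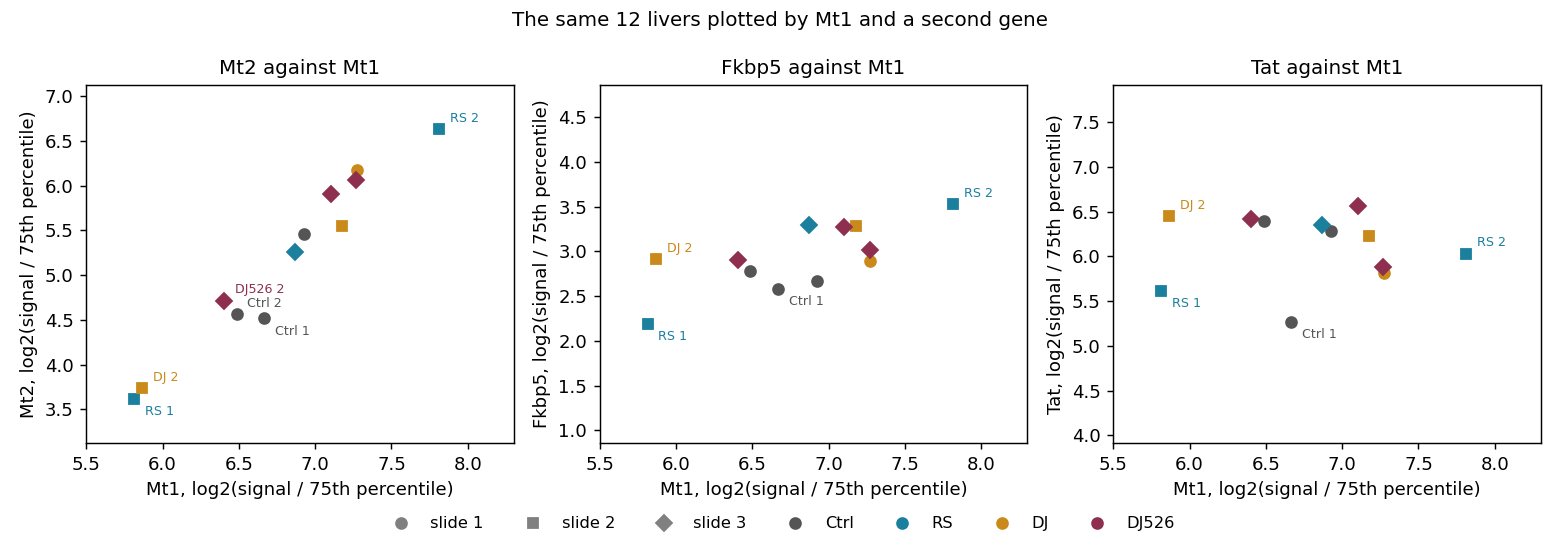
Each point is 1 liver, coloured by diet and shaped by slide, with the log2 level of Mt1 on the horizontal axis and that of Mt2, Fkbp5 or Tat on the vertical axis. Mt2 lies along a line with Mt1 (r = 0.977), Fkbp5 follows more loosely (r = 0.713) and Tat has r = -0.01 over all 12 mice, a value that rests on Ctrl mouse 1 and RS mouse 1.

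Of the other 27 pairs of members none passed the adjustment. Fkbp5 came closest, with r = 0.713 to Mt1 (permutation p = 0.00966, adjusted 0.0918, rho 0.559 with permutation p = 0.0628) and r = 0.707 to Mt2 (permutation p = 0.00984, adjusted 0.0918, rho 0.608 with permutation p = 0.0415). Without RS mice 1 and 2, the farthest from the median of Fkbp5, these fell to 0.360 and 0.404, so that both relations rest on those mice. Tsc22d3 and Tat had r = 0.664 (permutation p = 0.0192, adjusted 0.134) and rho 0.594 (permutation p = 0.0465, adjusted 0.326), and r was 0.623 without Ctrl mouse 2 and RS mouse 1, the farthest from the median of Tsc22d3, but 0.272 without Ctrl mouse 1 and RS mouse 1, the farthest for Tat, so that this relation rests on those mice. Nr3c1 and Fkbp5 had r = -0.62 (permutation p = 0.032, adjusted 0.179) and rho -0.608 (permutation p = 0.0408, adjusted 0.326), and r was -0.414 without Ctrl mouse 1 and RS mouse 2. Mt1 had r = -0.01 to Tat (permutation p = 0.968, adjusted 0.968), which was -0.63 without Ctrl mouse 1 and RS mouse 1, the lowest for Tat, and the r of Mt2 to Tat went from 0.09 to -0.65 without them. These values rest on those mice. Mt1 had r = -0.04 to Sgk1 and 0.19 to Tsc22d3. Over the 28 pairs r was positive in 15, with a median of 0.07.

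Among 15565 named genes well above background on all arrays, the genes whose levels over the 12 mice were most like those of a member are given by Pearson's r, as a description. For Mt1 they were Mt2, Tgm1 (r = 0.942) and Garem1 (0.903), and for Mt2 they were Mt1, Garem1 (0.938) and Taf1d (0.931). For Mt1, Fkbp5 stood at rank 99, Tsc22d3 at rank 4324 and Tat at rank 8052. For Fkbp5 the closest was Lcn8 (0.927), for Sgk1 the acute phase protein gene Orm2 (0.930), for Tat Itgb1bp1 (0.941) and for Tsc22d3 Gulp1 (0.908). For Nr3c1 it was Tnrc6b (0.898), and for Hsd11b1 Ncaph2 (0.879).

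A wider list of 22 glucocorticoid-induced genes had no gene that passed the test in any of the 8 comparisons (lowest limma adjusted p over its 24 probes 0.280). At an unadjusted p under 0.05 there was 1 gene in RS against Ctrl, 0 in DJ against Ctrl and 1 in DJ526 against Ctrl. The median log2 difference of the list was -0.08 in RS against Ctrl, 0.13 in DJ against Ctrl and -0.06 in DJ526 against Ctrl, beside 0.03, -0.02 and 0.02 over all probes. Of its 22 genes, 9, 19 and 10 were higher than in Ctrl in RS, DJ and DJ526. In rice against starch and sucrose 20 were higher, with a median of 0.12 beside -0.01 over all probes. These comparisons share mice, genes of the list can move together, and a common direction was not tested. Groups did not overlap for 0 of its genes in RS against Ctrl (10.2% of all probes), for 1 in DJ against Ctrl (9.34%) and for 2 in DJ526 against Ctrl (20.6%), 1 higher and 1 lower. Its brightest genes by probe were Pck1, the rate-limiting enzyme of gluconeogenesis (diet means 7.21 to 7.43), Angptl4, a lipoprotein lipase inhibitor (5.64 to 6.07), Errfi1, an inhibitor of EGF receptor signalling (7.08 to 7.26), and Igfbp1, a binding protein of insulin-like growth factors (6.14 to 6.92).

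The list spread widely between mice of 1 diet. In 19 of its 22 genes the spread within diets was above the median probe, and the list's median spread was 0.367. Gadd45g, Ddit4 and Cdkn1a, which respond to growth arrest or stress, spread most (1.28, 1.16 and 1.16), and were chosen for mention after their values were seen. Ddit4 was lowest in Ctrl mouse 1 (1.70) and highest in Ctrl mouse 2 (5.54), and Gadd45g was lowest in Ctrl mouse 1 (1.33) and highest in DJ mouse 3. RS mouse 1, the lowest for Mt1, was second lowest for both (2.05 and 2.12), and RS mouse 2, the highest for Mt1, was second highest for Gadd45g (4.85) and read 3.31 for Ddit4.

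**Figure D4:**
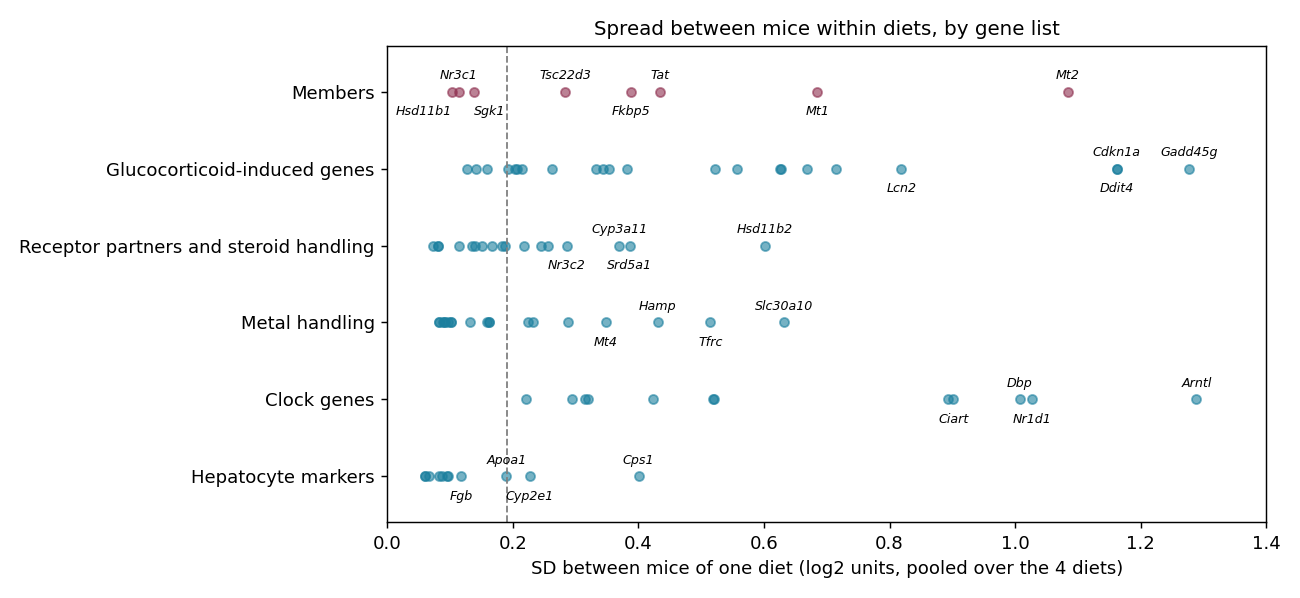
SD between mice of 1 diet, pooled over the 4 diets, in log2 units (horizontal axis) for the 8 members and the genes of each list (1 point a gene, the widest named). The dashed line is the median of 27285 detected probes (0.191), and Mt1 and Mt2 lie far to its right, among the widest glucocorticoid-induced and clock genes.

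Of 17 genes for receptor partners and steroid handling none passed the test (lowest adjusted p over 26 probes 0.258), and 7 spread more within diets than the median probe. At an unadjusted limma p under 0.05 there were 4, 1 and 2 genes in RS, DJ and DJ526 against Ctrl. Groups did not overlap for 2 genes higher and 1 lower in RS against Ctrl (10.2% of all probes). In DJ against Ctrl they were 1 higher and 2 lower (9.34%), and in DJ526 against Ctrl 1 higher and 5 lower (20.6%). Hsp90ab1, the chaperone that holds the receptor ready for hormone, had diet means between 6.00 and 6.18. Serpina6, which encodes the corticosteroid-binding globulin of blood, read 7.03, 7.11 and 6.87 in the RS mice and 6.68, 6.46 and 6.75 in the Ctrl mice, without overlap (log2 difference 0.38, SE 0.110, unadjusted p = 0.00549, adjusted p = 0.596). Crebbp, a coactivator, had means between 3.89 and 4.18. Cyp3a11, which hydroxylates steroids and drugs, read 6.29, 5.78 and 5.59 in the DJ526 mice (log2 difference to DJ -0.88, SE 0.262, adjusted p = 0.350). These values lay below every mouse of the other diets except RS mouse 3 at 6.19, the only mouse of another diet on their slide. The list's median log2 difference was -0.06, -0.09 and -0.10 in RS, DJ and DJ526 against Ctrl, beside the same 0.03, -0.02 and 0.02 over all probes.

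Of 19 metal-handling genes none passed the test (lowest adjusted p over 27 probes 0.166), and 7 spread more within diets than the median probe. At an unadjusted limma p under 0.05 there were 4, 3 and 3 genes in RS, DJ and DJ526 against Ctrl. Groups did not overlap for 4 genes higher and 1 lower in RS against Ctrl (10.2% of all probes). In DJ against Ctrl they were 2 higher and 2 lower (9.34%), and in DJ526 against Ctrl 6 higher and 2 lower (20.6%). These comparisons share the Ctrl mice, and genes of a list can move together. Mtf1, the metal sensor that drives Mt1 and Mt2, lay between -1.22 and -0.65 in all 12 mice, and Slc30a1, the zinc exporter that MTF1 also induces, between 0.27 and 1.14. Both are named as the regulator and a fellow target of the metallothioneins, and were chosen after their values were seen. Slc30a1 read 0.27 in RS mouse 1 and 1.11 in RS mouse 2, the lowest and highest mice for Mt1, but it was lower in DJ mouse 3 (0.33), where Mt1 was 7.18, than in DJ mouse 2 (0.59), where Mt1 was 5.87. Of the other metallothionein genes, Mt3 read -0.57, -0.45 and -0.32 in the DJ526 mice and -0.04, -0.05 and -0.02 in the DJ mice (log2 difference -0.41, SE 0.0831, unadjusted p = 0.000468, adjusted p = 0.166), so that it neither ranged as Mt1 and Mt2 did nor passed the test, and Mt4 had diet means between -5.71 and -5.08. These were named for their family. Hamp, which encodes the iron hormone hepcidin, read 6.09, 6.71 and 5.57 in the Ctrl mice and 7.10, 7.56 and 7.22 in the RS mice (log2 difference 1.17, SE 0.304, unadjusted p = 0.00273, adjusted p = 0.532). In DJ526 against Ctrl the Hamp difference was 1.12 (adjusted p = 0.237). Trf, the plasma iron carrier, differed between DJ and Ctrl by 0.25 (adjusted p = 0.819), Cp, the plasma copper oxidase, had means between 6.15 and 6.34, and Slc39a4, a zinc importer, between 4.89 and 5.04. The list's median log2 difference was 0.06, 0.05 and 0.10 in RS, DJ and DJ526 against Ctrl.

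Clock genes were read because glucocorticoid targets follow the time of day. None of 12 passed the test (lowest adjusted p over 14 probes 0.179), and all 12 spread more within diets than the median probe. Dbp, a clock output gene, ran from 2.32 in Ctrl mouse 2 to 5.51 in DJ526 mouse 3, and the same Ctrl mouse had the lowest Nr1d2 (-0.58) and Tef (4.89) and the highest Tsc22d3 (5.32) and Sgk1 (2.34) of all mice. Per2, a repressor of the clock that glucocorticoids also induce, read -1.41, -1.60 and -1.67 in the DJ mice, below every other mouse (log2 difference to Ctrl -1.03, SE 0.167, unadjusted p = 7.39e-05, adjusted p = 0.650). DJ and Ctrl mice did not overlap for 9.34% of all probes. Over the 12 mice Dbp had r = -0.58 to Tsc22d3 (permutation p = 0.0492, adjusted 0.394 over 8 relations, rho -0.371 with permutation p = 0.237), which fell to -0.05 without Ctrl mouse 2 and DJ mouse 1. Its r to Mt1 was 0.25 (permutation p = 0.435) with rho 0.224 (permutation p = 0.486), and its r to Mt2 was 0.20 (permutation p = 0.542) with rho 0.182 (permutation p = 0.572). The part of the time of day, of feeding and of handling in the spread of Mt1 and Mt2 was not tested.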

How the data were processed

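Liver RNA of 12 mice was hybridised to 12 one-colour Agilent 4X44K v2 arrays. The authors deposited the scanner output of Feature Extraction (version 11.5.1.1), with spot intensity on a linear scale after background subtraction, and a table of globally normalized intensity, which is that signal times 1 factor per array. RNA was isolated from frozen liver. The labels name Trizol and the methods a column kit.

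Unflagged spots of a probe were averaged, put on the log2 scale and set against the array's 75th percentile, since the deposited files hold none on that log2 scale. Spots of array controls were dropped, 68 of 39429 probes lacked a value on some array, and 69.8% of probes were named through RefSeq accessions. limma (version 3.58.1, R 4.3.3) was fitted with 1 mean per diet, a trend on the mean signal and Benjamini-Hochberg adjustment over all probes (threshold 0.05, residual degrees of freedom 8), and was tested on simulated data. Correlations used 100000 permutations. A gene with several probes is given by its brightest. All member probes, the 4 brightest genes of each list and the 3 genes most like each member were to be named. The members and lists were chosen with earlier results of these data known. Replicates are 3 mice a diet, whose number limits the precision. Alternatives were other background correction, scaling, filters, blocks and tests, DJ and RS exchanged (their array identifiers disagree between listings), and each mouse left out. RefSeq tables (GRCm38.p6) gave names and promoter windows only. The array design used mm9.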

Additional observations from a re-analysis of the deposited data

How the results depend on the processing

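No member probe was called in any comparison under the 25 alternatives, and the lowest adjusted p of a member gene was 0.229 (Fkbp5, DJ526 against Ctrl, with only those groups in the fit). Of 1576 member differences recomputed, 18 had an unadjusted p under 0.05 and 153 changed sign, none of which had been called. Of the 153, 22 also moved by more than the spread within diets. Moves of that size without a change of sign also occurred and are not in this count. With slide as a fixed block the Mt2 difference of RS against Ctrl went from 0.32 to 1.80, beside a spread of 1.08. The largest moves came with slide as a fixed block, and the cause was not tested. The Hsd11b1 difference of RS against Ctrl rose there from 0.06 to 0.33 (unadjusted p = 0.0422, adjusted p = 0.462). With normexp the Nr3c1 difference of DJ526 against Ctrl turned from -0.05 to 0.27 (unadjusted p = 0.00654, adjusted p = 0.244). With DJ and RS exchanged the Hsd11b1 difference of rice against starch and sucrose turned from -0.09 to 0.07. The methods' t-test, fitted across all probes, gave an unadjusted p of 0.0373 for Fkbp5 in DJ526 against Ctrl (0.354 after Benjamini-Hochberg). For the dimmer Nr3c1 probe in DJ526 against RS the same t-test gave an unadjusted p of 0.0064 (0.654 after Benjamini-Hochberg). For Mt2 in DJ526 against Ctrl, leaving out a mouse and the other alternatives gave 0.47 to 2.11.

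The numbers of the mice were not shown to pair them: deviations of same-numbered mice from their diet means correlated by -0.340 to 0.386 (median 0.000942). With the replicate block 0 member probes were called, the Mt2 difference of DJ526 against Ctrl stayed at 0.72 (adjusted p = 0.785), and the probes called over the whole array fell from 2, 4 and 3 to 0 in DJ526 against Ctrl, DJ and RS.

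Counts over all probes depended on the fit. In DJ526 against Ctrl, DJ and RS they were 173, 107 and 28 without RS mouse 3, then 0, 23 and 15 without DJ mouse 1, and 8, 7 and 7 without RS mouse 1. They were 9, 27 and 3 with quantile normalization, 4, 14 and 8 without dim probes, 4, 10 and 3 with median scaling, and 0, 11 and 1 without the variance trend. They were 0, 4 and 40 with slide as a fixed block, 0, 2 and 3 with slide as a random block, 0, 1 and 1 with normexp, 0, 1 and 0 by the methods' t-test and 0 each with only the groups compared. Without another mouse they lay between 0 and 2. With slide as a fixed block RS and DJ against Ctrl had 1 and 8, rice against starch and sucrose 3 and the contrast of resveratrol's effects 17. The contrast of resveratrol's effects went from 0 to 19 without DJ mouse 1 and to 1 without Ctrl mouse 1 or DJ526 mouse 3. RS against Ctrl went from 0 to 4 without RS mouse 1 and to 1 without DJ mouse 1, Ctrl mouse 1 or Ctrl mouse 2, and DJ against Ctrl from 0 to 1 without Ctrl mouse 1 or 2. For any difference among the diets the count was 2, and it was 51 without RS mouse 3, 10 without DJ mouse 1 and 9 without RS mouse 1, 11 with slide as a fixed block and 5 with quantile normalization. None of these calls was a member probe.

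The relations between members were recomputed in settings chosen after seeing the data. For Mt1 and Mt2 r was 0.967 (normexp, 10 mice), 0.979 (quantile), 0.973 (median scaling) and 0.978 (deposited table), and 0.968 to 0.987 with each mouse left out. For Fkbp5, r was 0.573 to 0.807 to Mt1 and 0.574 to 0.788 to Mt2 with each mouse left out, and without RS mouse 1 neither had a permutation p under 0.05 (0.0634 and 0.0644).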
